A study of Homo sapiens with 6 samples.

Results

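The oxidative phosphorylation genes described here are the nuclear genes for the subunits of complexes II to V of the mitochondrial respiratory chain, with cytochrome c. They were taken by symbol: SDHA to SDHD for complex II, CYC1 and the UQCR genes for complex III, CYCS for cytochrome c, the COX4 to COX8 names for complex IV, and the ATP5 names for complex V, with pseudogenes left out. The rule found 47 genes among the 56305 in the count tables, of which 4 belonged to complex II, 9 to complex III, 1 was cytochrome c, 15 belonged to complex IV and 18 to complex V. The symbols are those of the tables, which use the older ATP5 names (ATP5A1, ATP5B and so on). RNA-seq had been carried out on MOLM13 cells to follow the transcriptome after METTL3 degradation. MOLM13 is a human acute myeloid leukemia (AML) line that carries an internal tandem duplication of FLT3 and a fusion of the MLL gene, and both groups were this 1 line. The 3 control libraries came from cells given DMSO, the solvent, for 24 h, and the 3 treated libraries from cells given 1 µM ZW27941 for 24 h. ZW27941 is a PROTAC, a molecule that joins a METTL3 ligand to a ligand of the VHL ubiquitin ligase so that METTL3, the enzyme that writes m6A on mRNA, is sent to the proteasome.

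Complex II (succinate dehydrogenase) passes electrons from succinate to ubiquinone, and complex III passes them from ubiquinol to cytochrome c, which carries them to complex IV. Complex IV reduces oxygen to water, and complex V (ATP synthase) uses the proton gradient that complexes I, III and IV build to make ATP. Every subunit of complex II is encoded in the nucleus, whereas complexes III, IV and V also hold subunits translated inside the mitochondrion from mitochondrial DNA. AML cells are known to rely on oxidative phosphorylation. A few genes lie at the edge of the symbol rule. COX4I1, a core nuclear subunit of complex IV, is not matched by it and is given separately. ATP5SL and ATP5S are matched by name although they are not counted among the structural subunits of ATP synthase.

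The genes of each library held between 143454176 and 178744976 counts, and 37.4% to 39.8% of the reads listed for a library lay in the tallies of reads given to no gene. Reads aligned to several places numbered 13970868 in ZW27941 replicate 3 and 9090893 to 10440524 in the other libraries. The 8 myeloid markers (CD33, SPI1, CEBPA, LYZ, MPO, FLT3, HOXA9 and MEIS1) were all present. Their lowest group mean was 45.9 CPM (counts per library scaled to 1000000) for MEIS1 on ZW27941. Of these, 4 (LYZ, SPI1, MPO and CEBPA, 50% of the list) were higher on ZW27941, against 16.3% of all genes tested. MPO and CEBPA no longer passed the threshold without DMSO replicate 3 (edgeR adjusted p = 0.0815 and 0.0629) or with upper quartile normalization (edgeR adjusted p = 0.0574 and 0.0844). HOXA9 did not pass the threshold (log2 fold change −0.061, edgeR adjusted p = 0.108). It fell with upper quartile normalization (−0.084, edgeR adjusted p = 0.0261) and with length and GC trends removed (−0.072, edgeR adjusted p = 0.0249). That last correction covers only the 16118 genes tested whose length and GC content were known. HBA1 and HBB were at 0 in every library. CD3E, MS4A1, EPCAM and COL1A2 had group means of no more than 0.0287 CPM and were not tested. Of the T cell markers 3 of 4 were tested: CD3D and CD8A had group means of no more than 0.185 CPM and did not pass the threshold. CD4, which myeloid cells also express, was at 231 CPM in DMSO and 220.5 CPM on ZW27941 and fell (log2 fold change −0.069, edgeR adjusted p = 0.0323). The call of CD4 was lost without DMSO replicate 2, DMSO replicate 3, ZW27941 replicate 1 or ZW27941 replicate 2 (log2 fold change −0.071 to −0.061, adjusted p 0.0833 to 0.130 from edgeR), with library size as the only scaling (edgeR adjusted p = 0.0646), with no filter on low counts (edgeR adjusted p = 0.0830) and with the replicate block (edgeR adjusted p = 0.0508). The B cell marker CD79A (1.54 CPM in DMSO and 1.31 CPM on ZW27941) was tested, and KRT8 (7.49 CPM in DMSO and 7.36 CPM on ZW27941) and COL1A1 (1.02 CPM in DMSO and 0.999 CPM on ZW27941) stood for epithelial cells and fibroblasts. None of these 3 passed the threshold (edgeR adjusted p from 0.106 to 0.926), and the part of other cell types in the results was not tested. The samples are labelled as replicates without a statement that they came from separate cultures, so the p-values measure the spread between these libraries, which may be technical.

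Most nuclear subunits of complexes II to V were lower on ZW27941, by small amounts. Of the 47 genes, 43 passed the filter on low counts and were tested, and 27 of these 43 (62.8%) fell at an edgeR adjusted p under 0.05, against 13.8% of the 20399 genes tested. In the other direction 4 of 43 (9.30%) rose, namely UQCRFS1, UQCR10, COX6A1 and COX8A, against 16.3% of all genes tested, and 12 did not pass the threshold. The falls ran from 4.65% to 20.2% (log2 fold change −0.069 to −0.32) and the rises from 7.86% to 19.0% (log2 fold change 0.11 to 0.25). The median log2 fold change was −0.099 over the 43 genes and −0.0019 over all genes tested, and the mean on ZW27941 was below that in DMSO for 34 of the 43. Summed over the 43 genes tested, as all summed CPM below are over tested genes, CPM went from 6784 ± 32.6 in DMSO to 6210.1 ± 137 on ZW27941 (mean ± SD, n = 3 each), 8.45% less. The share of all counts held by the 47 genes was 0.672% to 0.680% in the DMSO libraries and 0.615% to 0.635% in the ZW27941 libraries. In bulk RNA, fewer cells that express a gene and less RNA per cell cannot be told apart.

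**Figure D1:**
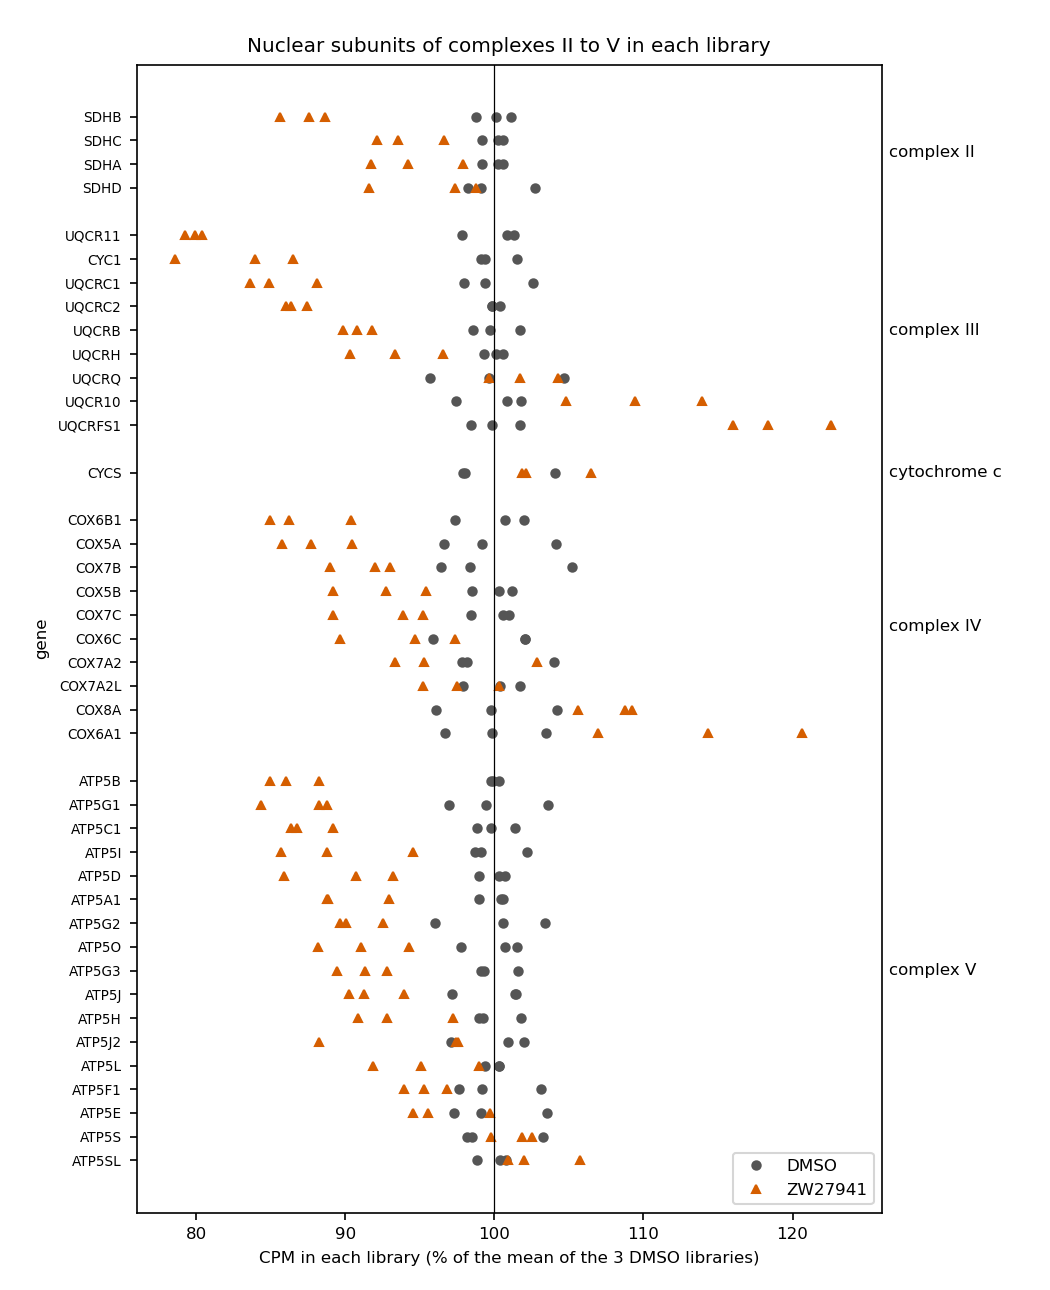
CPM of each subunit gene in each library, on the x axis as a percentage of the mean of the 3 DMSO libraries, with 1 gene per row grouped by complex; gray circles are DMSO libraries and orange triangles ZW27941 libraries. COX8C and ATP5L2, both under 1 CPM, are left out, and most rows have all 3 triangles to the left of the circles while UQCRFS1, UQCR10, COX6A1 and COX8A have them to the right.

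The ZW27941 libraries lay entirely below the DMSO libraries for 27 of the 43 genes, where 19.9% of all genes tested did so. They lay entirely above for 5, where 21.7% of all genes tested did so, and the groups overlapped for 11. These 27 were not quite the 27 that fell: COX6C fell although its groups overlapped, and ATP5L (log2 fold change −0.069, edgeR adjusted p = 0.0548) had groups that did not overlap. ATP5SL was likewise higher in all 3 ZW27941 libraries without passing the threshold. The median change of the 43 genes against the DMSO mean, taken library by library, was −0.14, −0.12 and −0.070 (log2) in ZW27941 replicates 1, 2 and 3, and −0.010 to 0.014 in the DMSO libraries. ZW27941 replicate 3, the library with the most reads aligned to several places, had the smallest shift, and whether the 2 are related was not tested. Without that library 31 genes fell, with ATP5L, ATP5E, ATP5J2 and COX7A2 added (log2 fold change −0.11 to −0.076, edgeR adjusted p = 0.00195 to 0.0417), and the median log2 fold change was −0.13. Of the 27 genes that fell, 22 did so in each of the 6 fits that left out 1 library. ATP5L also passed the threshold with RLE or upper quartile normalization, with length and GC trends removed, by DESeq2 and with at least 10 counts asked of every library (log2 fold change −0.093 to −0.063, adjusted p 0.0119 to 0.0467). Among all genes called, 45.8% were lower, and with upper quartile normalization 57.9% were, which was 3643 of the 20399 genes tested. Under that scaling 30 subunit genes fell, with ATP5L, ATP5J2 and SDHD added (log2 fold change −0.11 to −0.084, edgeR adjusted p = 0.0119 to 0.0422), and 3 rose.

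NRF1 and the ETS factor GABP are known activators of nuclear respiratory genes, so letters of their motifs were looked for in the 250 bases before the RefSeq start of each gene, on both strands. Promoters matched 36 of the 47 genes. The letters CGCNTGCGC (NRF1-type), or GCGCANGCG on the other strand, occurred in 12 of the 36 (33.3%), against 7.02% of 27305 genes with a promoter entry. The letters CCGGAAG (ETS-type), or CTTCCGG on the other strand, occurred in 11 (30.6%), against 8.82%. The 7.02% and 8.82% are over all genes with a promoter entry, whether tested or not. Shares over the genes tested alone were not taken, so the background is not a matched one. Neither motif contains the other, and 4 genes, SDHD, UQCR11, COX6A1 and ATP5J, held both. Genes with the NRF1-type letters comprised 8 that fell, 2 that rose and 2 others. Those with the ETS-type letters comprised 7 that fell, 2 that rose and 2 others. Among all 36 genes with a promoter entry, 20 fell and 4 rose. Whether the letters go with the change was not tested. A match is a match of letters only. The 6 stretches shown, at most 30 bases each, take a matched gene that fell and one that rose for complexes III and IV and a matched gene that fell for complexes II and V. They come from RefSeq on GRCh38.p14, read 5′ to 3′ on the strand of the gene, with the matched letters in capitals; where a gene holds several matches, the one farthest from the start is shown.
UQCRFS1, which rose (NRF1-type, chr19:29213162-29213191, minus strand): cgcctcctcgCGCCTGCGCcgtggttggaa
UQCRC1, which fell (NRF1-type, chr3:48609673-48609702, minus strand): tacggtactgCGCCTGCGCcgcgaccgcca
ATP5C1, which fell (NRF1-type, chr10:7788145-7788174, plus strand): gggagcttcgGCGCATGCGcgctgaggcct
COX6A1, which rose (ETS-type, chr12:120438083-120438112, plus strand): attttccacttccgCTTCCGGcgctgcggc
COX6B1, which fell (ETS-type, chr19:35648293-35648322, plus strand): agtccccacctctctcagCTTCCGGctggt
SDHB, which fell (ETS-type, chr1:17054142-17054171, minus strand): cacccgggaaaCCGGAAGccgcctcccact
The first matched base lay 30, 46, 22, 16, 12 and 128 bases before the RefSeq start in this order. UQCRFS1 and UQCRC1 hold the same 9 letters on the strand of the gene, and COX6A1 and COX6B1 the same 7. The 2 genes of each pair were picked for their opposite directions, which are therefore not a result. GENCODE v29 places some starts further upstream than RefSeq does.

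All 4 genes of complex II had lower means on ZW27941, and 3 of them fell (75%, against 13.8% of all genes tested). Summed CPM was 6.15% lower. SDHB (chr1:17018722-17054170 in GENCODE v29 on GRCh38), the iron-sulfur subunit that hands electrons on toward ubiquinone, was the most changed. It was counted at 63.1, 62.5 and 61.7 CPM in DMSO and 53.4, 55.3 and 54.7 CPM on ZW27941 (log2 fold change −0.20, standard error 0.027, edgeR adjusted p = 7.97e-06). All 3 treated libraries were well below the controls, a fall of 12.7%. SDHA, the flavoprotein that oxidizes succinate, stood at 272, 275 and 274 CPM in DMSO and 258, 251 and 268 CPM on ZW27941 (log2 fold change −0.080, standard error 0.026, edgeR adjusted p = 0.0226). The groups were close but did not overlap, and the fall of 5.39% was lost on leaving out DMSO replicate 2, DMSO replicate 3, ZW27941 replicate 1 or ZW27941 replicate 2 (log2 fold change −0.078 to −0.059, adjusted p 0.0601 to 0.162 from edgeR). The membrane anchors SDHC and SDHD hold the site of ubiquinone reduction. SDHC was at 215, 212 and 215 CPM in DMSO and 200.3, 207 and 197 CPM on ZW27941 (log2 fold change −0.088, standard error 0.025, edgeR adjusted p = 0.00924), again without overlap. SDHD was at 73.8, 70.6 and 71.2 CPM in DMSO and 65.8, 71.0 and 70.0 CPM on ZW27941 and did not pass the threshold (log2 fold change −0.060, standard error 0.030, edgeR adjusted p = 0.137), and ZW27941 replicate 2 lay within the range of the controls.

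Complex III held the largest changes past the threshold in both directions. Of its 9 genes 6 fell (66.7%, against 13.8% of all genes tested), 2 rose (22.2%, against 16.3%) and UQCRQ did not pass the threshold. Its median log2 fold change was −0.14, with summed CPM 8.21% lower. Its 2 nuclear-encoded redox subunits moved in opposite directions. CYC1 encodes cytochrome c1, the heme protein that gives electrons to cytochrome c, and was counted at 204, 209 and 205 CPM in DMSO and 173, 162 and 178 CPM on ZW27941 (log2 fold change −0.27, standard error 0.029, edgeR adjusted p = 4.97e-07). UQCRFS1 (chr19:29205321-29213541) encodes the Rieske iron-sulfur protein, which takes electrons from ubiquinol, and was counted at 109, 105 and 107 CPM in DMSO and 126, 124 and 131 CPM on ZW27941 (log2 fold change 0.25, standard error 0.026, edgeR adjusted p = 3.14e-07). UQCRFS1 shares its NRF1-type letters with UQCRC1, as printed above. Every treated library was below every control for CYC1, a fall of 17.0%, and above every control for UQCRFS1, a rise of 19.0%. The core proteins UQCRC1 and UQCRC2, which form the part of the complex that faces the matrix, fell by 14.4% and 13.4%. UQCRC1 was at 200.04, 209 and 203 CPM in DMSO and 173, 171 and 179.9 CPM on ZW27941 (log2 fold change −0.23, standard error 0.026, edgeR adjusted p = 1.28e-06). UQCRC2 was at 220.3, 219 and 219 CPM in DMSO and 189, 189.5 and 192 CPM on ZW27941 (log2 fold change −0.21, standard error 0.023, edgeR adjusted p = 7.05e-07). Both were separated from the controls by more than the spread within either group.

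Among the small accessory subunits of complex III, UQCR11, UQCRB and UQCRH fell and UQCR10 rose. UQCR11, which had the lowest log2 fold change of all subunit genes tested, was at 10.6, 10.6 and 10.3 CPM in DMSO and 8.33, 8.45 and 8.40 CPM on ZW27941 (log2 fold change −0.32, standard error 0.048, edgeR adjusted p = 2.34e-05). All 3 treated libraries were below the controls, and the gene shares exon positions with another gene on its strand. UQCRB, a subunit near the ubiquinone-binding sites, was at 324, 319.9 and 330.0 CPM in DMSO and 292, 295 and 298 CPM on ZW27941 (log2 fold change −0.14, standard error 0.024, edgeR adjusted p = 1.33e-04). Its groups did not overlap, and the fall was 9.18%. UQCRH, the hinge protein between cytochrome c1 and cytochrome c, had a log2 fold change of −0.099 (edgeR adjusted p = 0.00593), and of −0.065 with trends of length and GC content removed (edgeR adjusted p = 0.0196). UQCR10 rose by 0.13 on the log2 scale (edgeR adjusted p = 0.00278) from a mean of 51.0 CPM in DMSO to 55.7 CPM on ZW27941. UQCRQ stood at 0.027 (edgeR adjusted p = 0.583), with overlapping groups.

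CYCS, the soluble cytochrome c that links complexes III and IV and that also triggers apoptosis when released from mitochondria, did not pass the threshold. It was at 196, 185 and 185 CPM in DMSO and 193, 192 and 201 CPM on ZW27941 (log2 fold change 0.049, standard error 0.028, edgeR adjusted p = 0.194). DMSO replicate 1 lay above 2 of the 3 treated libraries, and without it the log2 fold change was 0.079 (edgeR adjusted p = 0.0495), past the threshold.

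In complex IV 6 of the 11 genes tested fell (54.5%, against 13.8% of all genes tested), 2 rose (18.2%, against 16.3%) and 3 did not pass the threshold. Summed CPM was 7.10% lower and the median log2 fold change −0.091. The 9 subunits made in most tissues gave all 8 calls, with COX7A2 the exception (−0.042, edgeR adjusted p = 0.363). COX6B1 (chr19:35648223-35658861), which lies on the side of the intermembrane space, was at 193, 202 and 199.5 CPM in DMSO and 171, 168 and 179 CPM on ZW27941 (log2 fold change −0.20, standard error 0.027, edgeR adjusted p = 9.24e-06). COX5A, on the matrix side, was at 129, 119 and 123 CPM in DMSO and 106, 108 and 112 CPM on ZW27941 (log2 fold change −0.19, standard error 0.029, edgeR adjusted p = 4.41e-05). Both were lower in all 3 treated libraries, by 12.8% and 12.04%. COX7B, a small membrane subunit, was at 73.2, 67.1 and 68.5 CPM in DMSO and 61.9, 64.1 and 64.7 CPM on ZW27941 (log2 fold change −0.13, standard error 0.031, edgeR adjusted p = 0.00256). COX7C, another small membrane subunit, was at 201, 196 and 200.2 CPM in DMSO and 177, 187 and 189.5 CPM on ZW27941 (log2 fold change −0.11, standard error 0.027, edgeR adjusted p = 0.00331). In both the groups were separate, and for COX7B the gap between them was narrower than the range of either group. COX5B fell by 0.11 on the log2 scale (edgeR adjusted p = 0.00291). COX6C fell with overlapping groups (log2 fold change −0.091, standard error 0.031, edgeR adjusted p = 0.0293), a call lost on leaving out DMSO replicate 1, DMSO replicate 3, ZW27941 replicate 1 or ZW27941 replicate 2 (log2 fold change −0.098 to −0.059, adjusted p 0.0561 to 0.200 from edgeR).

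The 2 complex IV subunits that rose were COX6A1 and COX8A. COX6A1, the general isoform of a regulatory subunit, was at 13.9, 13.4 and 12.96 CPM in DMSO and 15.3, 14.3 and 16.2 CPM on ZW27941 (log2 fold change 0.19, standard error 0.045, edgeR adjusted p = 0.00249). COX8A, another general subunit, was at 19.9, 20.8 and 19.2 CPM in DMSO and 21.1, 21.8 and 21.9 CPM on ZW27941 (log2 fold change 0.11, standard error 0.036, edgeR adjusted p = 0.0234). Neither had overlapping groups. Both genes share exon positions with another gene on the same strand. The rise of COX8A was lost with upper quartile normalization (log2 fold change 0.086, edgeR adjusted p = 0.0721) and on leaving out DMSO replicate 1, DMSO replicate 3, ZW27941 replicate 2 or ZW27941 replicate 3 (log2 fold change 0.081 to 0.11, adjusted p 0.0566 to 0.137 from edgeR). With trends of length and GC content removed it was larger (log2 fold change 0.17, edgeR adjusted p = 2.64e-04). COX7A2L, which helps to join complexes III and IV into supercomplexes, stood at −0.034 (edgeR adjusted p = 0.365). Of the 5 isoforms known from other tissues, such as heart and skeletal muscle or testis, COX6A2 and COX7B2 were at 0 in every library, and COX6B2 and COX7A1 were at no more than 0.0333 CPM in any library and were not tested. COX8C was tested at 0.251, 0.212 and 0.334 CPM in DMSO and 0.366, 0.319 and 0.407 CPM on ZW27941, with overlapping groups (log2 fold change 0.45, standard error 0.22, edgeR adjusted p = 0.137). COX4I1, the core subunit outside the symbol rule, was at 395, 402 and 397 CPM in DMSO and 374, 365 and 396 CPM on ZW27941 (log2 fold change −0.074, standard error 0.028, edgeR adjusted p = 0.0456). Its fall of 5.02% was close to the threshold and was lost on leaving out any DMSO library, ZW27941 replicate 1 or ZW27941 replicate 2 (log2 fold change −0.079 to −0.051, adjusted p 0.0831 to 0.267 from edgeR). It was also lost with trends of length and GC content removed (log2 fold change −0.045, edgeR adjusted p = 0.102) and with library size as the only scaling (log2 fold change −0.064, edgeR adjusted p = 0.0723). NDUFA4, named for complex I but known as a subunit of complex IV, was at 88.8 CPM in DMSO and 80.7 CPM on ZW27941 on average and fell (log2 fold change −0.14, standard error 0.029, edgeR adjusted p = 0.00105).

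In complex V 12 of 18 genes fell (66.7%, against 13.8% of all genes tested) and 6 did not pass the threshold. The median log2 fold change was −0.13 and summed CPM was 10.1% lower. By edgeR 0 of the 18 rose after adjustment, against 16.3% of all genes tested. At an unadjusted p under 0.05 0 rose as well, and DESeq2 gave the same 0. In the F1 head, where ATP is made, 4 of 5 genes fell. ATP5B (chr12:56638175-56646068), the catalytic beta subunit and the gene of the set with the most counts, was at 1247, 1246 and 1253 CPM in DMSO and 1074, 1061 and 1102 CPM on ZW27941 (log2 fold change −0.21, standard error 0.025, edgeR adjusted p = 1.47e-06). ATP5A1, the alpha subunit that alternates with beta around the head, was at 585, 576 and 584 CPM in DMSO and 517, 516 and 541 CPM on ZW27941 (log2 fold change −0.15, standard error 0.025, edgeR adjusted p = 1.10e-04). ATP5C1, the gamma subunit that turns within the head, was at 145, 144 and 147 CPM in DMSO and 126, 125 and 129.5 CPM on ZW27941 (log2 fold change −0.19, standard error 0.025, edgeR adjusted p = 3.69e-06). For all 3 the treated libraries lay below the controls, and for ATP5B the controls spanned from 1246 to 1253 CPM. ATP5D, the delta subunit, fell by 0.15 on the log2 scale (edgeR adjusted p = 2.61e-04). ATP5E, the epsilon subunit, stood at −0.050 (edgeR adjusted p = 0.206), with overlapping groups.

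ATP5G1, ATP5G2 and ATP5G3 encode the same mature subunit c, which forms the rotating ring in the membrane, and all 3 fell. ATP5G1 was at 68.8, 64.3 and 66.0 CPM in DMSO and 58.6, 56.0 and 58.9 CPM on ZW27941 (log2 fold change −0.20, standard error 0.030, edgeR adjusted p = 2.60e-05). ATP5G2 was at 242, 253 and 260.1 CPM in DMSO and 226, 225 and 233 CPM on ZW27941 (log2 fold change −0.14, standard error 0.027, edgeR adjusted p = 4.40e-04). ATP5G3 was at 184, 180.0 and 179.6 CPM in DMSO and 165, 162 and 168 CPM on ZW27941 (log2 fold change −0.13, standard error 0.024, edgeR adjusted p = 2.53e-04). The groups overlapped for none of the 3, with falls of 12.9%, 9.28% and 8.81%. Similar coding parts could share reads between these genes, and how any such reads were placed was not tested.

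The peripheral stalk, which keeps the F1 head from turning with the rotor, gave 4 calls of 4, all lower: ATP5F1, ATP5H, ATP5J and ATP5O, with log2 fold changes from −0.13 to −0.069. ATP5J was called in all 6 fits that left out a library. ATP5F1 was lost without DMSO replicate 1, DMSO replicate 3, ZW27941 replicate 1 or ZW27941 replicate 2 (log2 fold change −0.074 to −0.045, adjusted p 0.0872 to 0.253 from edgeR), with library size as the only scaling (log2 fold change −0.059, edgeR adjusted p = 0.0894) with no filter on low counts (−0.063, edgeR adjusted p = 0.0841) and with the replicate block (−0.069, edgeR adjusted p = 0.0624). ATP5H was lost without DMSO replicate 3, ZW27941 replicate 1 or ZW27941 replicate 2 (log2 fold change −0.090 to −0.073, adjusted p 0.0524 to 0.0897 from edgeR), and with trends of length and GC content removed (−0.057, edgeR adjusted p = 0.0654). ATP5O, the subunit that ties the stalk to the head, was lost without DMSO replicate 1, DMSO replicate 2 or ZW27941 replicate 1 (log2 fold change −0.13 to −0.11, adjusted p 0.0597 to 0.0875 from edgeR). Of the small membrane subunits ATP5I fell (log2 fold change −0.16, edgeR adjusted p = 7.30e-04; −0.080 and 0.0226 with trends of length and GC content removed), while ATP5J2 (−0.084, edgeR adjusted p = 0.115) and ATP5L did not pass the threshold. ATP5SL, at 57.5, 58.4 and 58.6 CPM in DMSO and 59.3, 58.7 and 61.5 CPM on ZW27941, had the highest log2 fold change of the ATP5 names without passing it (log2 fold change 0.041, standard error 0.027, edgeR adjusted p = 0.285). ATP5S and the barely counted ATP5L2, at no more than 0.0907 CPM in any library, stood at 0.020 and −0.065 (edgeR adjusted p = 0.684 and 0.939).

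**Figure D2:**
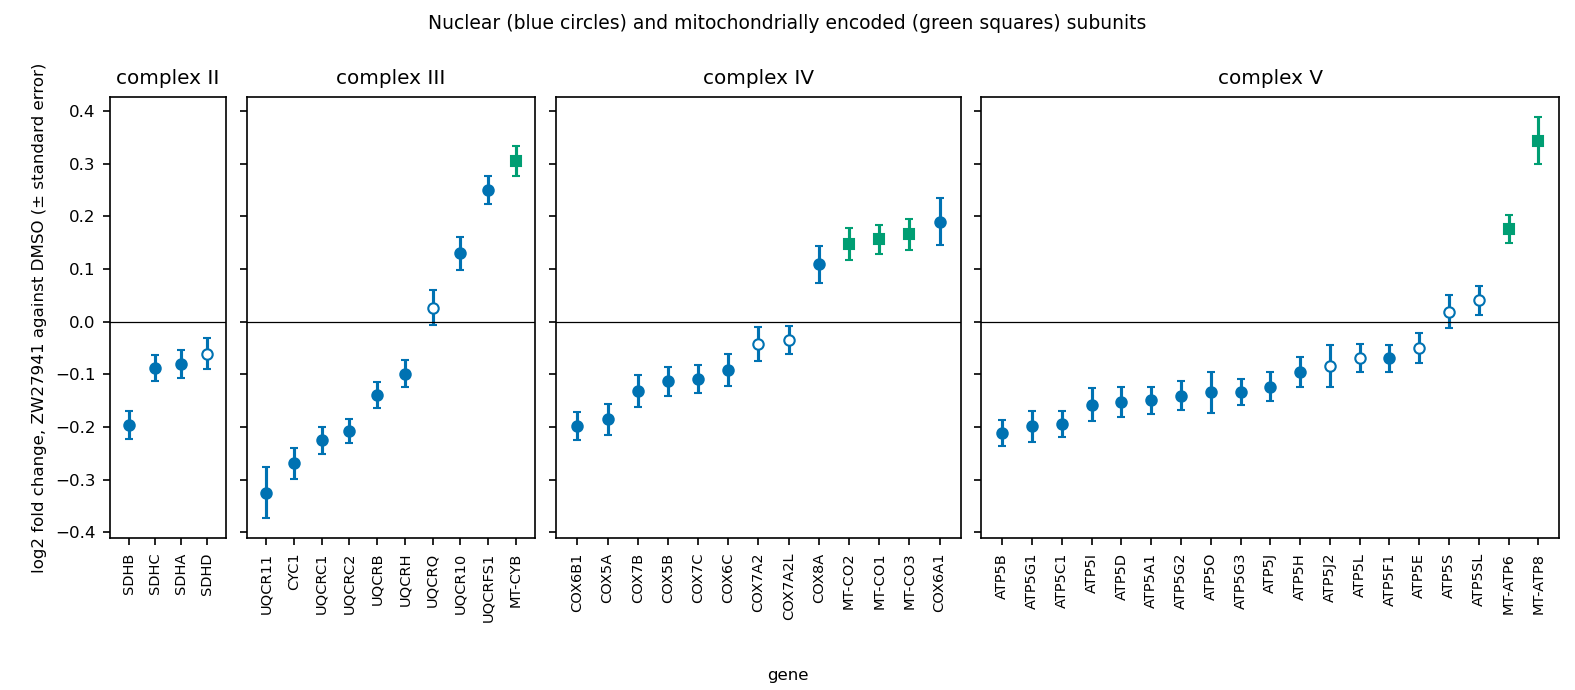
Log2 fold change of ZW27941 against DMSO with its standard error (y axis) for each gene (x axis) of complexes II, III, IV and V; blue circles are nuclear genes, green squares mitochondrially encoded genes, and filled symbols passed an adjusted p under 0.05. COX8C, ATP5L2 and CYCS are left out; the filled circles lie mostly between −0.32 and −0.069, and the 6 squares between 0.15 and 0.34.

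Of the other 6 nuclear genes known as parts of complexes IV or V but not matched by the symbol rule, 5 were tested. Of these 4 fell (COX4I1, NDUFA4, USMG5 and ATPIF1), 80% against 13.8% of all genes tested, with a median log2 fold change of −0.10. USMG5, a small membrane subunit of ATP synthase, stood at −0.14 (edgeR adjusted p = 0.00118) and ATPIF1, the inhibitor of its reverse reaction, at −0.10 (edgeR adjusted p = 0.00507). With trends of length and GC content removed ATPIF1 lost its call (log2 fold change −0.056, edgeR adjusted p = 0.0612), so that 1 of the 3 genes with a value under that correction, NDUFA4, fell. C14orf2, another small ATP synthase protein, did not pass the threshold (−0.071, edgeR adjusted p = 0.0651), though it did with upper quartile normalization (−0.094, edgeR adjusted p = 0.0151). COX4I2, an isoform known from lung, was near 0.

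The subunits of complexes III to V that are encoded in mitochondrial DNA went the other way, with 6 of 6 higher, against 16.3% of all genes tested. All lie on mitochondrial DNA and were counted in the same libraries, so they are not independent observations. MT-CYB, the cytochrome b of complex III, went from 1757 ± 39.1 to 2171 ± 67.3 CPM, mean ± SD, n = 3 each (log2 fold change 0.31, standard error 0.028, edgeR adjusted p = 4.98e-08). The core subunits of complex IV rose too, MT-CO1 by 0.16, MT-CO2 by 0.15 and MT-CO3 by 0.17 on the log2 scale (edgeR adjusted p = 1.92e-04, 7.02e-04 and 1.70e-04). MT-ATP6, the membrane subunit at the proton channel of complex V, rose by 0.18 and MT-ATP8 by 0.34 (edgeR adjusted p = 3.09e-05 and 5.58e-06). MT-ATP6 and MT-ATP8 overlap on the same strand, and nuclear copies of mitochondrial DNA can share reads with all 6. Such reads may lie in the tallies of reads given to no gene, and how they were divided is uncertain. Summed CPM of the 6 was 13.3% higher on ZW27941.

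For complexes III, IV and V, the ratio of mitochondrial to nuclear subunit reads was higher in each ZW27941 library than in any DMSO library. Complex I, which also holds both kinds of subunit, was not given a ratio. The ratio of MT-CYB to the summed nuclear subunits of complex III was 1.2449, 1.2106 and 1.1898 in DMSO replicates 1 to 3 and 1.61, 1.72 and 1.58 on ZW27941 (1.22 ± 0.0279 against 1.64 ± 0.0741, mean ± SD, n = 3 each). The ratio of MT-CO1, MT-CO2 and MT-CO3 to the nuclear subunits of complex IV was 9.06, 8.63 and 8.67 in DMSO and 10.8, 10.8 and 10.1 on ZW27941 (8.79 ± 0.238 against 10.6 ± 0.395). For complex V the ratio of MT-ATP6 and MT-ATP8 to the nuclear subunits was 0.357, 0.338 and 0.340 in DMSO and 0.438, 0.444 and 0.423 on ZW27941 (0.345 ± 0.0106 against 0.435 ± 0.0106). The nuclear sums hold only the tested genes of the symbol rule. They leave out COX4I1, NDUFA4, USMG5, C14orf2 and ATPIF1 and take in ATP5S and ATP5SL. These are ratios of CPM, which are not scaled by transcript length, so only their change between groups can be read. With 3 libraries in each group no exact permutation test over libraries can reach a two-sided p below 0.10, and none was run.

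**Figure D3:**
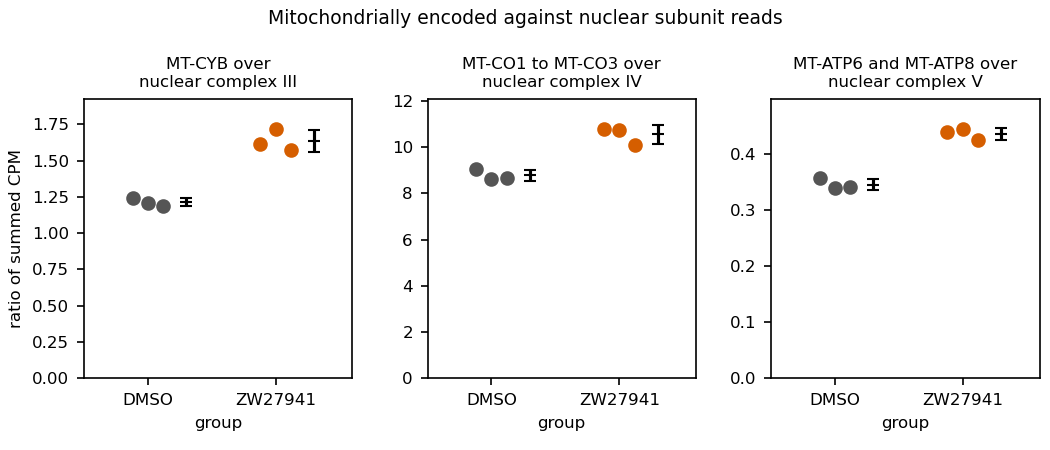
Ratio of summed CPM of mitochondrially encoded to nuclear subunits (y axis, from 0) in each library of the DMSO and ZW27941 groups (x axis), for complexes III, IV and V from left to right; dots are libraries, and the bars beside them the mean ± SD of 3. The 3 ZW27941 dots lie above the 3 DMSO dots in every panel, at 1.58 to 1.72, 10.1 to 10.8 and 0.423 to 0.444.

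Other lists of the pathway gave smaller medians or no common direction. Complex I, which feeds electrons from NADH into the chain, had 14 of 36 nuclear subunits (38.9%) lower, against 13.8% of all genes tested, and 5 (13.9%) higher, against 16.3%, with a median log2 fold change of −0.061 and summed CPM 5.55% lower. With upper quartile normalization 19 were lower (52.8%) and 2 higher (5.56%), where 3643 and 2644 of the 20399 genes tested were. Its lowest value was that of NDUFV2 (log2 fold change −0.36, standard error 0.12, edgeR adjusted p = 0.0310), whose call was lost without DMSO replicate 1, DMSO replicate 3 or ZW27941 replicate 3 (log2 fold change −0.34 to −0.18, adjusted p 0.10004 to 0.188 from edgeR). Its highest value was that of NDUFC2, which did not pass the threshold (log2 fold change 0.18, standard error 0.085, edgeR adjusted p = 0.120). Against these figures stood 62.8% lower and a median of −0.099 for complexes II to V.

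The assembly factors, a list of genes known to help in making the complexes without being their subunits, had 6 of 42 (14.3%) lower, close to the 13.8% of all genes tested, and 12 (28.6%) higher, against 16.3%. Their median log2 fold change was 0.034. With library size as the only scaling or with no filter on low counts 4 were lower. With upper quartile normalization 8 were lower (19.0%) and 9 higher (21.4%), where 3643 and 2644 of the 20399 genes tested were. For complex II, SDHAF1 fell (−0.17, edgeR adjusted p = 0.00689) and SDHAF3 rose (0.17, edgeR adjusted p = 2.16e-04); both act in the maturation of SDHB, which itself fell. For complex III, UQCC3 rose (0.22, edgeR adjusted p = 0.00289). UQCC2, which acts with UQCC1 early in the making of cytochrome b, fell (−0.086, edgeR adjusted p = 0.0411), a call lost without DMSO replicate 1, DMSO replicate 2, ZW27941 replicate 1 or ZW27941 replicate 2 (log2 fold change −0.090 to −0.072, adjusted p 0.0800 to 0.150 from edgeR). The call of UQCC2 was also lost with library size as the only scaling, with no filter on low counts and with the replicate block (log2 fold change −0.086 to −0.076, edgeR adjusted p = 0.0654 to 0.110). For complex IV 9 of 27 rose (33.3%, against 16.3% of all genes tested) and 3 fell (11.1%, against 13.8%). Their values ran from COX19 at −0.24 (edgeR adjusted p = 2.16e-06) to COA4 at 0.28 (edgeR adjusted p = 2.93e-07). For complex V, TMEM70, which helps to build the c ring, rose (0.15, edgeR adjusted p = 9.16e-04). TMEM242 fell (−0.10, edgeR adjusted p = 0.0395), a call lost on leaving out any library but ZW27941 replicate 3 (log2 fold change −0.12 to −0.086, adjusted p 0.0618 to 0.179 from edgeR). It was also lost by DESeq2 (log2 fold change −0.11, adjusted p = 0.0510), with library size as the only scaling and with no filter on low counts (log2 fold change −0.092 and −0.097, edgeR adjusted p = 0.0651 and 0.110).

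Of 7 carriers and channels that move ATP, ADP, phosphate and metabolites across the mitochondrial membranes, VDAC1 (−0.11, edgeR adjusted p = 0.00285) and VDAC2 (−0.23, edgeR adjusted p = 1.70e-06) fell, 28.6% of the list against 13.8% of all genes tested. With upper quartile normalization or with trends of length and GC content removed 4 of the 7 fell, against 3643 of 20399 and 3139 of 16118 genes tested. By DESeq2, with at least 10 counts asked of every library or with the replicate block 3 did. By edgeR 0 of the 7 rose, at an unadjusted p under 0.05 too, and by DESeq2 0. The highest value there was that of the phosphate carrier SLC25A3 (0.011, edgeR adjusted p = 0.785). Of 12 regulators of respiratory genes 3 (25%) rose, against 16.3% of all genes tested, and 0 fell by edgeR, with 0 lower also at an unadjusted p under 0.05 and by DESeq2. They were PPARGC1A, a coactivator of mitochondrial genes, from 1.24 CPM in DMSO to 2.02 CPM on ZW27941 (log2 fold change 0.71, standard error 0.10, edgeR adjusted p = 1.43e-05), GABPA (0.13, edgeR adjusted p = 4.28e-04) and YY1 (0.12, edgeR adjusted p = 5.41e-04). The lowest value was that of TFB2M, a factor for mitochondrial transcription (−0.035, edgeR adjusted p = 0.430).

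**Figure D4:**
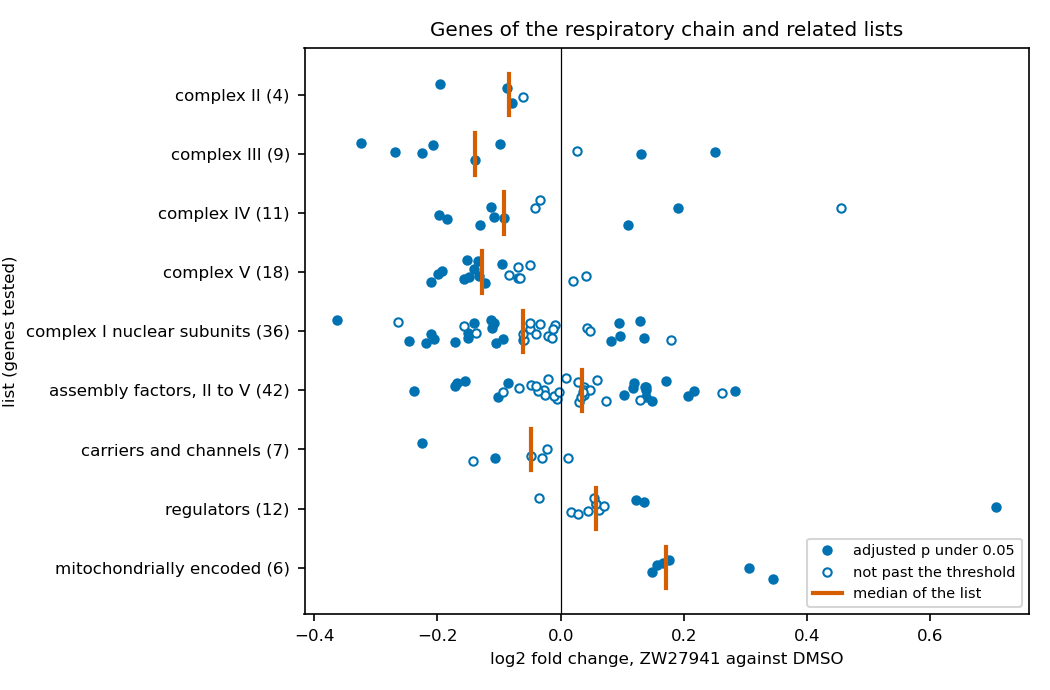
Log2 fold change of ZW27941 against DMSO (x axis) of each gene tested in complexes II, III, IV and V and in 5 related lists (y axis, with the number of genes tested); filled dots passed an adjusted p under 0.05, open dots did not, and the orange bar is the median of the list. The medians lie from −0.14 to −0.061 for the complexes, at 0.034 for the assembly factors and at 0.17 for the mitochondrially encoded genes.

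Genes that overlap or resemble others need separate mention. Reads that fitted more than 1 gene were tallied apart, 6324551 to 7823533 per library, as were reads aligned to several places. Reads in these tallies were given to no gene. The counts of such genes may therefore rest on the rest of their sequence, which was not tested. By GENCODE v29 exons, 11 of the 47 genes share positions with another gene on the same strand, of which 10 were tested, 5 fell (UQCR11, COX7C, ATP5G2, ATP5G3 and ATP5O) and 2 rose (COX6A1 and COX8A). Another 12, UQCRFS1 among them, share exon positions only with a gene on the other strand, and since the strand setting was not given in the sources used here, reads of the 2 strands may not have been separated. Among the 22 tested genes with no such overlap, 15 fell and 1 rose (UQCR10), where 13.8% and 16.3% of all genes tested did. Of 141 pseudogenes and near copies of the subunit genes, 88 had no count in any library and 17 were tested. Of these 1 (5.88%, against 13.8% of all genes tested) was lower and 2 (11.8%, against 16.3%) were higher. The lower one was ATP5F1P1, from 0.159 CPM in DMSO to 0.0331 CPM on ZW27941 (log2 fold change −2.24, edgeR adjusted p = 2.17e-04). The higher ones were SDHAP3 (0.24, edgeR adjusted p = 0.00273) and UQCRFS1P1 (0.22, edgeR adjusted p = 0.0487), the latter lost on leaving out any DMSO library or ZW27941 replicate 1 (log2 fold change 0.12 to 0.24, adjusted p 0.0738 to 0.313 from edgeR) and, with adjusted p from 0.0516 to 0.0773, by DESeq2 and with RLE or upper quartile normalization in edgeR. SDHAP1, a near copy of SDHA, was counted at 40.1 CPM in DMSO and 38.0 CPM on ZW27941. UQCRHL, a near copy of UQCRH, was counted at 13.9 CPM in DMSO and 13.6 CPM on ZW27941. The values of SDHA and UQCRH depend on how many reads that fit both copies were set aside, which was not tested.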

How the data were processed

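RNA of MOLM13 cells given DMSO or ZW27941 was sequenced (3 libraries each). The authors deposited raw counts per gene, 1 set per library, with no normalization. The submitters' processing notes name HISAT2, SAMtools 1.19.2, HTSeq 2.0.3 and hg38; the annotation and the strand setting are not given in the sources used here. The tallies of reads without a gene were left out of library sizes. Counts were fitted with edgeR 4.0.16 in R 4.3.3 (TMM, filterByExpr, quasi-likelihood test over 20399 genes, Benjamini-Hochberg adjustment, threshold 0.05). CPM used TMM factors of 0.994 to 1.01, and the coefficient of variation between replicates that edgeR estimated was 3.11%. CPM are not scaled by transcript length.

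Values in every library are given, in each complex, for the 4 genes with the lowest unadjusted p, the highest and lowest log2 fold change and the highest mean, and for the subunit c genes. COX4I1, NDUFA4 and the mitochondrially encoded genes are always given. In each list the highest and lowest genes are named, and those called where they are 5 or fewer. The genes and lists were chosen with earlier results of these data known. Same-numbered libraries did not deviate together (correlations −0.012, 0.0099 and 0.015, where each had to be over 0.1), so no pairing was used. On the second principal component (16.2% of the variance), replicates 3 of DMSO and ZW27941 lay at −19.5 and −20.0 and the other libraries at 7.31 to 12.4. Alternatives were RLE, upper quartile and library size scaling, removal of length and GC trends (GENCODE v29), DESeq2 1.42.0, other filters, a replicate block and leaving out each library.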

Additional observations from a re-analysis of the deposited data

How the results depend on the processing

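No subunit gene that had passed the threshold passed it in the other direction under any alternative run. The count that fell was 26 to 30 and the count that rose 3 or 4 under the alternatives that kept all libraries; DESeq2 gave 28 and 4. The median log2 fold change ran from −0.12 (upper quartile normalization) to −0.089 (library size as the only scaling). With length and GC trends removed it was −0.082, given as a description only. Leaving out 1 library gave 22 to 31 genes that fell, 3 or 4 that rose and medians from −0.13 to −0.084. With the replicate block 26 fell, 4 rose and the median was −0.099; ATP5F1 was the only subunit call it changed (log2 fold change −0.069, edgeR adjusted p = 0.0624), the numbers were not shown to pair the libraries, and not every library correlated best with its own number. Values under the threshold that changed sign were those of ATP5S (−0.0039 with upper quartile normalization, −0.0045 with length and GC trends removed), ATP5L2 (−0.49 to 0.28 on leaving out a library) and UQCRQ (−0.0035 to 0.062). The cause was not tested. Length and GC content were known for 79.0% of the genes tested, under the 80% needed, so that correction is void over all genes. For single genes, 43 of 43 subunit genes among them, its values are given as descriptions only. Their adjusted p-values were taken over the 16118 genes with known length and GC content. Counting depth is lowest for the genes under 1 CPM (COX8C, ATP5L2 and the 4 genes not tested).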

Other observations

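The 3 genes of subunit c kept nearly the same proportions. ATP5G1 held 13.3% ± 0.531 of their summed CPM in DMSO and 12.8% ± 0.189 on ZW27941 (mean ± SD, n = 3 each). ATP5G2 held 50.4% ± 1.35 and 50.6% ± 0.281, and ATP5G3 36.3% ± 0.866 and 36.6% ± 0.0962. The ranges of the groups overlapped for all 3.

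Across the 43 subunit genes tested, the log2 fold change had a Pearson correlation of −0.43 and a Spearman correlation of −0.33 with the log2 mean CPM (not scaled by transcript length), −0.072 and −0.039 with the log2 transcript length, and −0.16 and −0.30 with GC content. These are descriptions across genes, which share the same 6 libraries and are not independent replicates. The 43 genes take in COX8C and ATP5L2, both under 1 CPM and far below the rest. The correlations without these genes were not computed.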
